A study of Mus musculus with 60 samples.

Results

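Gene expression in the prefrontal cortex was set against gene expression in the hippocampus of the same 5 wild-type mice, all on the normal diet. The comparison used 10 of the 60 messenger RNA libraries of the series: every library labelled as prefrontal cortex (Pfc) or hippocampus (Hip) from wild-type mice with vitamin B6 in the diet. The series covers 20 mice, wild-type or with a knockout of Glo1, the first enzyme of the system that clears the reactive sugar by-product methylglyoxal. Pellets held 1.4 mg of vitamin B6 per 100 g in the normal diet and 5 µg per 100 g in the diet lacking it. The labels give week 8 to week 12 of age as the feeding period of either diet, and each mouse gave a prefrontal, a striatal and a hippocampal library. The mice described here (numbers 272, 273, 283, 286 and 317) carry no knockout, ate the 1.4 mg diet, and were all processed in batch 2, so the region contrast lies within 1 batch and within each mouse. Each library came from a whole dissected region, with its neurons, glia, vessels and any adjoining tissue mixed.

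The prefrontal cortex is a layered neocortical area whose pyramidal neurons are arranged by birth order and projection target, and it is known for working memory and the control of behaviour. The hippocampus is an older, simpler cortex in which the granule cells of the dentate gyrus, fed by neurons that continue to be born in adult rodents, project to the CA3 field and from there to CA1. It is known for memory of places and events, and the receptors for stress hormones and several channels and adhesion molecules mark its fields.

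Library totals were between 9053720 and 11367155 counts in the prefrontal cortex and between 9233461 and 10940012 in the hippocampus. RNA integrity numbers (RIN, a score of RNA intactness) ranged from 7.7 to 8.6 in the prefrontal cortex and from 8.3 to 8.9 in the hippocampus, so RIN moved with region. The 2 hippocampal libraries of mice 272 and 273 stood apart from the other 3 by high levels of choroid plexus genes: the summed level of the 15 choroid plexus markers was 2600 and 2627 CPM there (CPM, a gene's counts scaled to an equal total in every library), and between 284 and 298 CPM in the hippocampi of mice 283, 286 and 317. Where leaving out both mice ended the call of a gene named below, or moved the count of a gene list by over 1.5 times, the value without them is given. Values below are CPM, in the order of mice 272, 273, 283, 286 and 317, and every log2 fold change is hippocampus minus prefrontal cortex, so that a positive value is higher in the hippocampus.

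Of 13068 genes tested, 4657 differed between the regions in edgeR's quasi-likelihood test with the mouse as a block and a Benjamini-Hochberg adjusted p under 0.05, which is 35.6% of the genes tested. The hippocampus was higher for 2363 genes (18.1%) and the prefrontal cortex for 2294 (17.6%). This split moved with the scaling: 2823 were higher in the hippocampus and 1991 in the prefrontal cortex without TMM factors (TMM scales libraries by their bulk of genes), and 2670 and 1940 with limma on log2(RPKM + 1). At least 2-fold differences past the same threshold were found for 518 genes higher in the hippocampus (3.96%) and 519 higher in the prefrontal cortex (3.97%). The median log2 fold change over all genes was 0.02, and 4183 of the 4657 genes (89.8%) differed in the same direction in all 5 mice. CPM of the 5 and 5 libraries did not overlap for 3302 genes (25.3% of those tested), and 3069 genes (23.5%) were both non-overlapping and past the threshold. With RIN as a covariate 2830 genes passed, 1320 higher in the hippocampus and 1510 in the prefrontal cortex, and 59.9% of the calls without it were among them. Without mice 272 and 273, 3374 genes passed, and these held 68.4% of the calls made with all 5 mice.

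**Figure D1:**
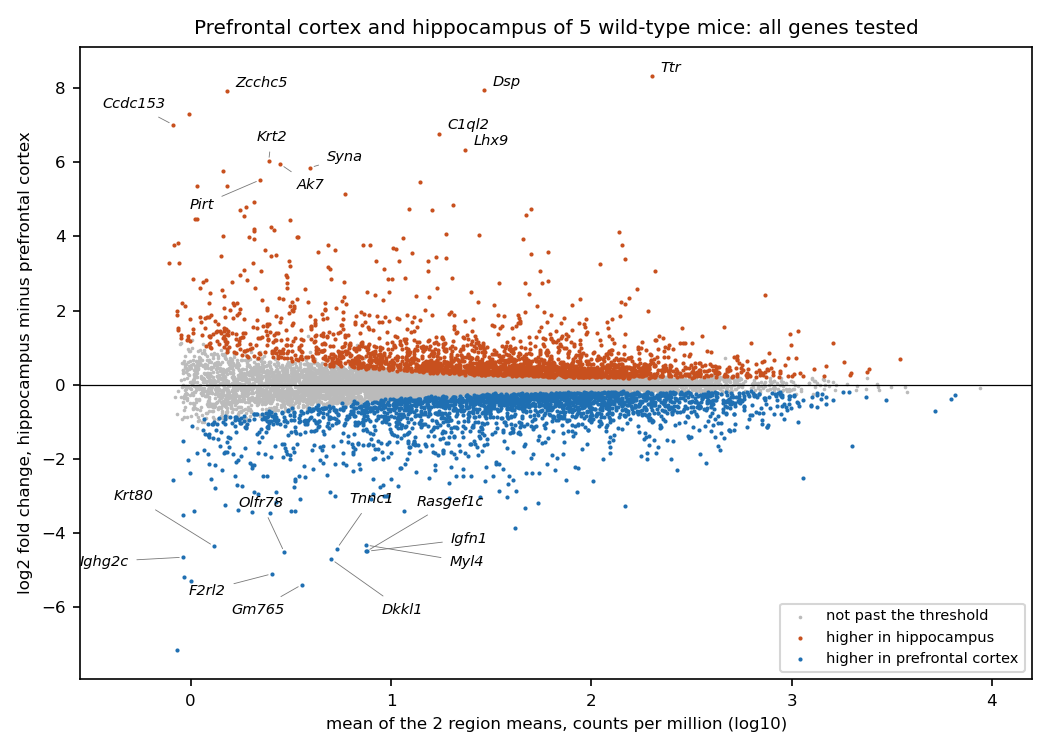
Each point is 1 of the 13068 genes tested, with the mean of the prefrontal and hippocampal mean levels on the x axis (log10 CPM) and the log2 fold change, hippocampus minus prefrontal cortex, on the y axis. Orange points (2363) passed the threshold as higher in the hippocampus, blue points (2294) as higher in the prefrontal cortex, and the 20 leading genes are named.

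Among genes past the threshold with CPM that did not overlap between the regions, the same direction in every mouse and a mean of at least 1 RPKM in the higher region, the 10 furthest towards the hippocampus were Ttr, Dsp, Zcchc5, Ccdc153, C1ql2, Lhx9, Krt2, Ak7, Syna and Pirt. Dsp (chr13:38151294-38198577, GRCm38.p6) encodes desmoplakin, a protein of cell junctions that in the forebrain marks dentate granule cells. Its level was 0.221, 0.583, 0, 0.294 and 0 CPM in the prefrontal cortex and 55.1, 71.7, 57.9, 54.6 and 51.1 CPM in the hippocampus. Every hippocampal library was far above every prefrontal one, where the gene was at the level of a few reads (log2 fold change 7.95, SE 0.26, edgeR adjusted p = 1.57e-11). C1ql2 (chr1:120340582-120343174) encodes a secreted C1q-like protein of mossy fibre synapses. It measured 0.331, 0.291, 0, 0.49 and 0.352 CPM in the prefrontal cortex and 38.7, 32.6, 27.3, 45.2 and 28.8 CPM in the hippocampus. The regions again did not overlap, with a 109-fold difference (log2 6.77, SE 0.23, edgeR adjusted p = 2.23e-11).

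Lhx9 (chr1:138825186-138848839), a LIM homeobox transcription factor, was read at 0.773, 0.0971, 0.50, 1.18 and 0.264 CPM in the prefrontal cortex and 40.3, 42.2, 47.4, 56 and 45.4 CPM in the hippocampus. All 5 hippocampal libraries were far above all 5 prefrontal ones (log2 fold change 6.34, SE 0.23, edgeR adjusted p = 2.84e-11). Zcchc5 (chrX:106837082-106840539), a retrotransposon-derived zinc finger gene on the X chromosome, had 0 counts in all 5 prefrontal libraries and 3.01, 3.48, 4.49, 1.84 and 2.38 CPM in the hippocampi. Against a floor of 3 counts over the 5 prefrontal libraries it was at least 51.7-fold higher in the hippocampus, a bound that covers counting error only. Ccdc153, a gene of motile cilia, also had 0 prefrontal counts and 1.63 ± 0.591 CPM (SD, n = 5) in the hippocampus, at least 27.5-fold higher on the same floor. The keratin gene Krt2 had 3 counts over the prefrontal libraries and 242 over the hippocampal ones, a ratio of 82.2 (exact 95% counting interval 27.8 to 402). Ak7, an adenylate kinase of cilia, Syna, a retroviral envelope-derived gene, and Pirt, a membrane regulator of ion channels, had hippocampal means of 5.53 ± 1.37, 7.77 ± 1.14 and 4.37 ± 1.23 CPM, and prefrontal means of 0.0784 ± 0.175, 0.122 ± 0.217 and 0.0809 ± 0.0824 CPM. Ttr, the transthyretin gene, is described with the choroid plexus genes below.

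Furthest towards the prefrontal cortex were Gm765, F2rl2, Dkkl1, Ighg2c, Olfr78, Rasgef1c, Igfn1, Tnnc1, Krt80 and Myl4, all of modest level. The predicted gene Gm765 (chr6:98238014-98342754) measured 8.62, 7.38, 4.2, 8.24 and 6.69 CPM in the prefrontal cortex and 0.208, 0, 0.102, 0.217 and 0.274 CPM in the hippocampus. The lowest prefrontal library, that of mouse 283, was still above every hippocampal one (log2 fold change -5.39, SE 0.36, edgeR adjusted p = 2.12e-08). Rasgef1c (chr11:49901169-49980223), an exchange factor for Ras-family GTPases, was at 12.6, 16.9, 16.1, 14.1 and 12.3 CPM in the prefrontal cortex and 0.728, 0.387, 0.612, 0.65 and 0.823 CPM in the hippocampus. This 22.6-fold difference had an edgeR adjusted p of 1.00e-09. Dkkl1 (chr7:45207525-45212165), a secreted Dickkopf-like protein, was at 9.83, 10.6, 9.7, 9.71 and 8.71 CPM in the prefrontal cortex and 0.312, 0.193, 1.22, 0 and 0.183 CPM in the hippocampus, where mouse 283 was the highest (log2 fold change -4.71, SE 0.40, edgeR adjusted p = 2.41e-07).

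Among the same genes 2 encode proteins known from striated muscle. Tnnc1 (chr14:31208312-31211729), troponin C of slow and cardiac muscle, was at 10.3, 9.71, 10.7, 11.9 and 8.71 CPM in the prefrontal cortex and 0.624, 0.773, 0.306, 0.433 and 0.274 CPM in the hippocampus. The atrial myosin light chain gene Myl4 was at 14.3 ± 1.54 CPM against 0.718 ± 0.148 CPM. Both were non-overlapping between the regions, with log2 fold changes of -4.42 and -4.32. The protease-activated receptor gene F2rl2 (prefrontal mean 4.96 ± 0.946 CPM), the immunoglobulin- and fibronectin-domain gene Igfn1 (14.6 ± 3.97 CPM), the odorant receptor gene Olfr78 (5.63 ± 1.71 CPM) and the keratin gene Krt80 (2.51 ± 0.652 CPM) had log2 fold changes of -5.10, -4.49, -4.53 and -4.36. Ighg2c, an immunoglobulin heavy chain constant gene of a family of similar genes whose reads may be shared, had 90 prefrontal counts against 3, a ratio of 29.4 (exact 95% counting interval 9.75 to 145). Olfr78 shares 15.3% of its exon bases with Olfr560, so some of its reads may belong to that gene.

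Genes that mark the hippocampal fields were mostly higher in the hippocampus. Of 28 such genes 25 were tested: 20 were higher in the hippocampus, 1 was higher in the prefrontal cortex, and 4 did not pass. That is 84% called, beside 35.6% of all genes tested. Some, such as Dsp and C1ql2, were tested only through their hippocampal counts. The median log2 fold change of the 25 genes was 0.98, against 0.02 over all genes tested. In whole tissue, fewer cells of a type and less RNA per cell cannot be told apart, here or in any result below. By field, 7 of 9 dentate granule genes, 3 of 4 CA1 genes, 4 of 4 CA2 genes, 4 of 6 CA3 genes and 2 of 2 mossy cell genes were higher in the hippocampus. The dentate genes had the highest median, 3.17, and the CA3 genes the lowest, 0.56.

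Prox1 (chr1:190118035-190170827), the homeobox factor that specifies granule cells, measured 23.9, 25.4, 27.2, 24.8 and 23.5 CPM in the prefrontal cortex and 241, 271, 258, 292 and 283 CPM in the hippocampus. The regions were 10.5-fold apart with little spread within either (log2 fold change 3.39, SE 0.084, edgeR adjusted p = 1.10e-12). The intestinal lactase gene Lct (chr1:128284756-128328318), which also labels granule cells, was at 1.55, 1.17, 0.50, 0.98 and 1.5 CPM in the prefrontal cortex and 28.7, 44.7, 26.3, 20.9 and 34.9 CPM in the hippocampus, a 26.1-fold difference without overlap (edgeR adjusted p = 9.96e-11). Fibcd1 (chr2:31813290-31846964), a chitin-binding receptor that marks CA1, was at 1.66, 2.72, 2.4, 1.57 and 1.76 CPM in the prefrontal cortex and 38.3, 50.6, 34.1, 21.6 and 32.7 CPM in the hippocampus. Its hippocampal values spread from the low value of mouse 286 to the high value of mouse 273, all above the prefrontal ones (log2 fold change 4.06, SE 0.14, edgeR adjusted p = 2.88e-11).

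Other field genes differed less. Dock10, an exchange factor found in granule cells, was at 48.5 ± 6.47 CPM (SD, n = 5) in the prefrontal cortex and 232 ± 28.3 CPM in the hippocampus. Amigo2, an adhesion protein of CA2, was at 11.3 ± 1.41 and 30.8 ± 3.23 CPM, and Rgs14, a regulator of G-protein signalling that restrains plasticity in CA2, at 20.1 ± 1.99 and 31.4 ± 4.54 CPM. The calcium-binding protein gene Calb2, a marker of mossy cells and of interneurons, was 2.69-fold higher in the hippocampus and the kainate receptor subunit gene Grik4, of CA3, 1.68-fold. All 5 passed edgeR's test (largest adjusted p = 2.22e-04, for Rgs14) without overlap between regions. Over the whole list 18 of 25 tested genes did not overlap, beside 25.3% of all genes tested. The exception in the list was Wfs1, used as a CA1 marker, at 51.8 ± 4.64 CPM in the prefrontal cortex and 40.1 ± 8.28 CPM in the hippocampus (log2 fold change -0.43, SE 0.10, edgeR adjusted p = 0.00325), with overlapping libraries.

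The genes of neocortical layers were split by layer. Of 29 tested, 18 were higher in the prefrontal cortex, 7 were higher in the hippocampus and 4 did not pass, with a median log2 fold change of -0.87. The share called was 86.2%, beside 35.6% of all genes tested. Among upper-layer genes 7 of 8 were higher in the prefrontal cortex, and among genes of layer 6 and the subplate 7 of 10. Layer 5 genes went both ways, 5 higher in the hippocampus and 4 in the prefrontal cortex of 11.

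Cux2 (chr5:121857962-122050415), a homeobox factor of the upper layers, was at 139.7, 134, 121, 109 and 134 CPM in the prefrontal cortex and 23, 21.6, 20.9, 27.6 and 18.6 CPM in the hippocampus. Foxp2 (chr6:14901349-15441977), a forkhead factor of layer 6, was at 32.4, 35.2, 28.8, 44.5 and 31.6 CPM in the prefrontal cortex and 4.68, 2.32, 4.08, 5.09 and 5.3 CPM in the hippocampus. Both were separated between regions, 5.9-fold and 8.27-fold (edgeR adjusted p = 4.04e-10 and 2.04e-09). Tbr1 (chr2:61802863-61814114), a T-box factor of deep-layer glutamatergic neurons, was at 289.6, 296, 268, 304 and 238 CPM in the prefrontal cortex and 80.8, 67.6, 76.2, 76.4 and 75.8 CPM in the hippocampus, lower in the hippocampus but still present in every library (log2 fold change -1.93, SE 0.082).

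Lamp5, a lysosome-associated membrane protein of upper-layer neurons, was at 174 ± 6.76 CPM in the prefrontal cortex against 30.2 ± 6.98 CPM. The synaptotagmin gene Syt6, of layer 6, was at 48.6 ± 6.37 against 10.8 ± 1.63 CPM, and the upper-layer factor Cux1 at 82.2 ± 6.78 against 46.2 ± 2.54 CPM. Fezf2, the selector gene of subcortical projection neurons, differed by only -0.38 on the log2 scale (edgeR adjusted p = 0.00847), a call lost with RIN as a covariate (edgeR adjusted p = 0.179) and without mice 272 and 273 (edgeR adjusted p = 0.0757).

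The cortical layer genes that were higher in the hippocampus included Bcl11b, Nr4a2, Mdga1, Foxo1, Crym and Etv1. Bcl11b (chr12:107910403-108004145), the zinc finger factor CTIP2 of corticospinal and also of hippocampal neurons, was at 114, 129, 116, 153 and 146 CPM in the prefrontal cortex and 306, 271, 349, 409 and 289.9 CPM in the hippocampus. Nr4a2 (chr2:57106830-57124003), the orphan nuclear receptor Nurr1, a subplate marker, was at 19.6, 19.5, 35.4, 36.3 and 34.6 CPM in the prefrontal cortex and 126, 106, 138, 171 and 192 CPM in the hippocampus. In both genes every hippocampal value exceeded every prefrontal one, and for Nr4a2 the prefrontal values of mice 272 and 273 were the lowest (log2 fold change 1.25, SE 0.10, for Bcl11b and 2.31, SE 0.093, for Nr4a2). The adhesion gene Mdga1 was 3.29-fold higher in the hippocampus, the forkhead factor Foxo1 2.39-fold, the thyroid hormone-binding protein gene Crym 2.05-fold and the ETS factor Etv1 1.57-fold.

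**Figure D2:**
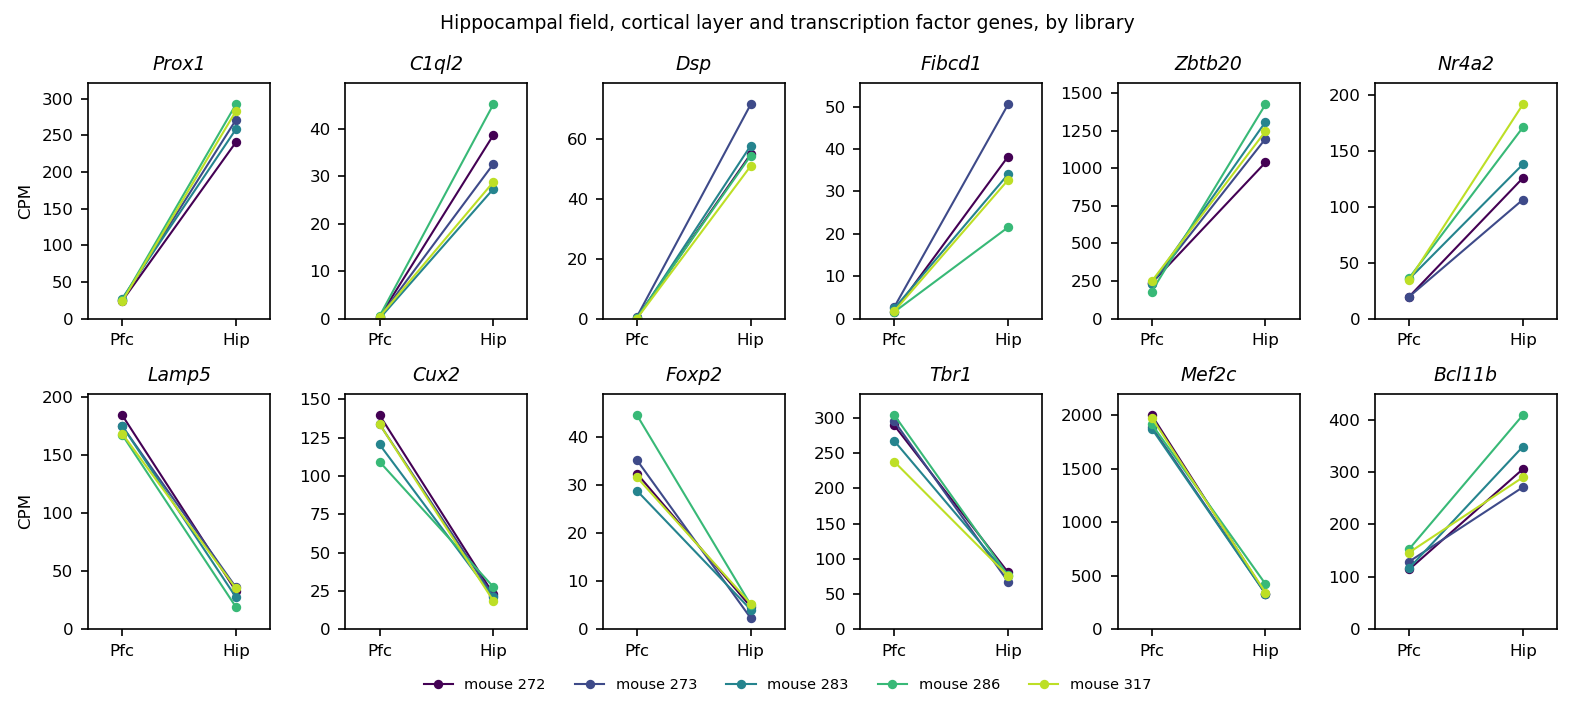
Levels in CPM (y axis, from 0) of 12 genes in the prefrontal cortex (Pfc) and hippocampus (Hip), each line joining the 2 libraries of 1 mouse. In Prox1, C1ql2, Dsp, Fibcd1, Zbtb20, Nr4a2 and Bcl11b all 5 lines go up to the hippocampus, and in Lamp5, Cux2, Foxp2, Tbr1 and Mef2c all 5 go down.

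Transcription factors that pattern the pallium also parted the regions in both directions. Of 41 tested, 16 were higher in the hippocampus and 11 in the prefrontal cortex, 65.9% in all, beside 35.6% of all genes tested. Lhx9 was among those tested only through their hippocampal counts. Zbtb20 (chr16:42875689-43634392), a zinc finger repressor required for hippocampal identity, was at 236, 233, 233, 179.8 and 247 CPM in the prefrontal cortex and 1038, 1196, 1307, 1424 and 1245 CPM in the hippocampus. Mouse 286 had both the lowest prefrontal and the highest hippocampal value, and the regions did not overlap (log2 fold change 2.42, SE 0.11, edgeR adjusted p = 3.95e-10). Mef2c (chr13:83504017-83667079), a MADS-box factor that controls synapse number, was at 2004, 1894, 1878, 1919 and 1980.0 CPM in the prefrontal cortex and 331, 334, 331, 423 and 343 CPM in the hippocampus. Per unit length it was at 123 ± 3.48 RPKM in the prefrontal cortex and 22.4 ± 2.53 RPKM in the hippocampus, while Zbtb20 was at 7.35 ± 0.859 and 40.4 ± 4.63 RPKM.

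Nr2f2 (COUP-TFII), a nuclear receptor, was at 22.9 ± 2.71 CPM in the prefrontal cortex and 93.2 ± 21.8 CPM in the hippocampus. Bhlhe22, a basic helix-loop-helix factor, Lmo3, a LIM-only cofactor, and Nfib, a nuclear factor I protein, were 2.47-fold, 2.04-fold and 1.88-fold higher there. In the other direction the homeobox factor Meis2 was at 325 ± 22.3 CPM in the prefrontal cortex and 93.7 ± 10.5 CPM in the hippocampus. Tshz3, a teashirt zinc finger factor, Pou3f2, the POU factor Brn2, and Otx1, a homeobox factor of deep layers, were 3.05-fold, 2.9-fold and 2.89-fold higher in the prefrontal cortex. All 8 had non-overlapping libraries and an adjusted p under the threshold in edgeR, the largest being 9.32e-06 for Otx1. They were picked for small p-values, so this adds nothing to the result of the list. Over the whole list 24 of 41 tested genes did not overlap, beside 25.3% of all genes tested.

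Progenitor and newborn-neuron genes of the subgranular zone summed to 358 to 443 CPM in the prefrontal cortex and 426 to 541 CPM in the hippocampus. Of 16 listed, 11 were tested, 5 were higher in the hippocampus (8 with no low-count filter) and 1 in the prefrontal cortex. This is 54.5% of those tested, beside 35.6% of all genes. Low genes such as Top2a may have been kept by the low-count filter through their hippocampal counts, so this share is not read here. Top2a (chr11:98992947-99024199), a topoisomerase of dividing cells, was at 1.33, 1.55, 0.60, 2.06 and 1.14 CPM in the prefrontal cortex and 3.74, 3.87, 2.96, 4.01 and 3.66 CPM in the hippocampus. The regions were separated at a level of a few CPM (log2 fold change 1.43, SE 0.27, edgeR adjusted p = 6.06e-04). Mki67, the proliferation antigen Ki-67, was 2.15-fold higher in the hippocampus, the immature-neuron factor Sox11 1.83-fold, and Hopx, a homeodomain protein of quiescent stem cells and astrocytes, 1.62-fold (overlapping libraries). Dcx (doublecortin), the microtubule protein of migrating neurons, went the other way, at 81 ± 13.1 CPM in the prefrontal cortex and 56.3 ± 6.12 CPM in the hippocampus (log2 fold change -0.56, SE 0.095, edgeR adjusted p = 2.64e-04), with overlapping libraries. Hopx shares 27.2% of its exon bases with the antisense gene Hopxos, and reads of the 2 genes may not be told apart.

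Wnt proteins are secreted ligands that act through Frizzled receptors and LRP co-receptors to stabilise beta-catenin or to direct cell movement, and secreted modulators of the Dickkopf, Sfrp and R-spondin families tune them. Of 44 pathway genes tested, 15 were higher in the prefrontal cortex and 11 in the hippocampus, 59.1% in all, beside 35.6% of all genes. The hippocampal count was 6 with RIN as a covariate and 7 without mice 272 and 273. By role, the prefrontal cortex was higher for 4 of 8 ligands and 6 of 10 secreted modulators, and the hippocampus for 6 of 15 receptors. Over all genes tested, 17.6% were higher in the prefrontal cortex and 18.1% in the hippocampus, and each role holds few genes. Some members, such as Dkkl1, were tested only through the counts of 1 region, which favours a call. The ligands Wnt10a, Wnt9a and Wnt4 were at 5.98 ± 1.21, 10.02 ± 2.1 and 22.1 ± 3.1 CPM in the prefrontal cortex against 1.37 ± 0.479, 2.85 ± 1.15 and 9.7 ± 2.06 CPM in the hippocampus.

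The modulators Rspo1, an R-spondin that enhances signalling, and Sfrp1, a decoy that binds Wnt, were 6.67-fold and 3.6-fold higher in the prefrontal cortex, beside Dkkl1 above. Among receptors, the tyrosine kinase-like gene Ror1 (chr4:100095791-100444806) was at 1.1, 1.26, 0.70, 1.57 and 1.23 CPM in the prefrontal cortex and 9.67, 11.2, 6.93, 9.1 and 7.5 CPM in the hippocampus. The regions were apart by a factor of 7.25 (log2 fold change 2.86, SE 0.22, edgeR adjusted p = 7.70e-08). Lgr4, the R-spondin receptor, was 1.52-fold higher in the hippocampus, and the intracellular inhibitor Nkd2 3.66-fold. Axin2, a target gene used as a readout of beta-catenin signalling, was at 26 ± 2.23 CPM in the prefrontal cortex and 19.4 ± 2.89 CPM in the hippocampus (log2 fold change -0.47, SE 0.12, edgeR adjusted p = 0.00624), with overlapping libraries.

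**Figure D3:**
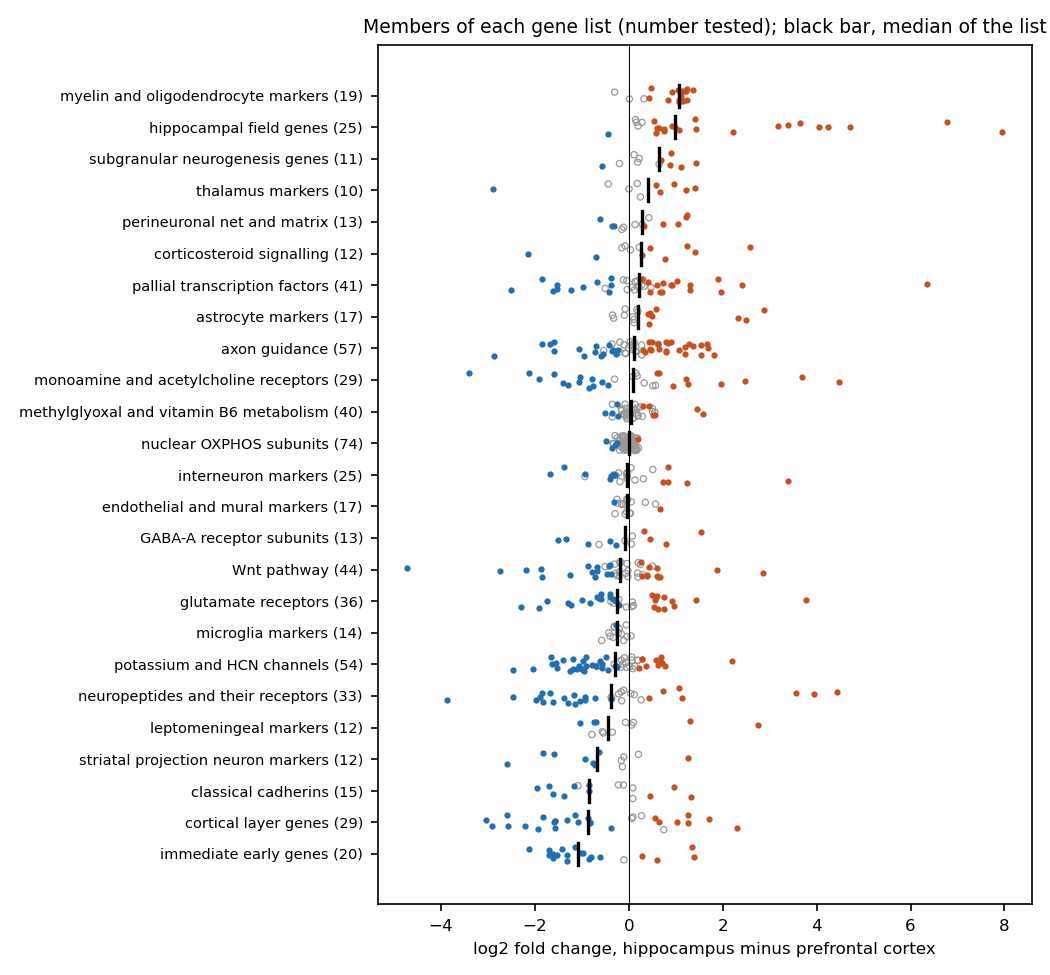
Each row is 1 gene list with at least 10 genes tested (number in brackets), each point 1 gene at its log2 fold change, hippocampus minus prefrontal cortex (x axis). Filled points passed the threshold, orange for higher in the hippocampus and blue for higher in the prefrontal cortex, open points did not, and black bars are medians, which run from -1.07 for the immediate early genes to 1.08 for the myelin genes.

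Glutamate receptor genes differed in both directions. Of 36 receptor and auxiliary genes tested, 12 were higher in the hippocampus and 17 in the prefrontal cortex. The share called was 80.6%, beside 35.6% of all genes tested. Among AMPA receptor subunits, Gria1 (chr11:57011571-57330244) was at 555, 582, 592, 581 and 511 CPM in the prefrontal cortex and 1519.8, 1731, 1572, 1507 and 1552 CPM in the hippocampus. All hippocampal libraries were well above all prefrontal ones (log2 fold change 1.44, SE 0.064, edgeR adjusted p = 2.34e-10). Gria2, whose subunit sets calcium permeability, was 1.53-fold higher in the hippocampus, and Gria4 1.78-fold higher in the prefrontal cortex.

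The largest difference in the family was in Shisa6 (chr11:66211725-66527984), an auxiliary protein that keeps AMPA receptors from desensitising. It was at 18.9, 22.8, 16.5, 19.3 and 17.1 CPM in the prefrontal cortex and 276, 303, 261, 241 and 251 CPM in the hippocampus, 13.7-fold apart with no overlap (log2 3.77, SE 0.085, edgeR adjusted p = 6.21e-13). Cnih2, a cornichon that slows AMPA receptor gating, was 1.95-fold higher in the hippocampus. Another auxiliary gene went the other way: Gsg1l (chr7:125878412-126082757), a suppressor of AMPA currents, was at 109.9, 114, 119, 103 and 93.6 CPM in the prefrontal cortex and 31.7, 27, 18.3, 15.6 and 23 CPM in the hippocampus (log2 fold change -2.29, SE 0.12). The transmembrane AMPA regulator Cacng3, at 137 ± 16.1 against 42.2 ± 5.29 CPM, and the kainate subunit Grik3, at 102 ± 15.5 against 42.4 ± 4.37 CPM, were also higher in the prefrontal cortex.

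Of NMDA receptor genes, 1 of 6 was higher in the hippocampus and 1 in the prefrontal cortex, near the shares over all genes tested (18.1% and 17.6%). Grin2a, the subunit of mature synapses, was at 464 ± 25.7 CPM in the prefrontal cortex and 740.1 ± 52 CPM in the hippocampus. Of 7 metabotropic receptors 5 were higher in the prefrontal cortex and 2 in the hippocampus. Among the 5, the presynaptic receptor Grm8 was 3.77-fold higher in the prefrontal cortex, and Grm3 and Grm2, which inhibit adenylyl cyclase, 2.0-fold and 1.55-fold.

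GABA-A receptors are pentamers whose alpha subunit sets where the receptor sits and how it responds. Of 13 subunit genes tested, 4 were higher in the hippocampus and 5 in the prefrontal cortex (3 without mice 272 and 273). In all 69.2% passed, beside 35.6% of all genes tested. Gabra5 (chr7:57407669-57591016), of extrasynaptic receptors that carry tonic inhibition, was at 154, 148, 116, 157 and 136 CPM in the prefrontal cortex and 463, 392, 394, 482 and 381 CPM in the hippocampus. Gabra3 (chrX:72432676-72656919) was at 341, 372, 319.7, 367 and 353 CPM in the prefrontal cortex and 138, 115, 132, 117 and 137 CPM in the hippocampus. The order of these 2 subunits per unit length was thus opposite in the regions: Gabra3 at 89.3 ± 5.36 RPKM exceeded Gabra5 at 47.8 ± 5.58 RPKM in the prefrontal cortex, and Gabra5 at 142 ± 15.6 RPKM exceeded Gabra3 at 32.6 ± 2.76 RPKM in the hippocampus. Their log2 fold changes were 1.53 (SE 0.080, edgeR adjusted p = 1.42e-09) and -1.50 (SE 0.083, edgeR adjusted p = 2.34e-09).

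Gabra2 and Gabrb1 were 1.74-fold and 1.38-fold higher in the hippocampus. Gabrd, the delta subunit that often pairs with tonic receptors, was at 14.2 ± 1.1 CPM in the prefrontal cortex and 5.9 ± 1.37 CPM in the hippocampus, and Gabrg3 at 106 ± 8.1 and 60.03 ± 3.39 CPM.

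Potassium and HCN channel genes, which set resting potential and firing pattern, were more often higher in the prefrontal cortex. Of 54 tested, 27 were higher there and 11 in the hippocampus, the latter being 7 with RIN as a covariate and 7 without mouse 283. The share called was 70.4%, beside 35.6% of all genes tested. Kcnh5 (chr12:74897217-75177332), an ether-a-go-go channel, was at 24.5, 25, 30.6, 20.5 and 19.2 CPM in the prefrontal cortex and 8.42, 8.7, 7.14, 8.99 and 6.49 CPM in the hippocampus. The same family held Kcnh7 and Kcnh1, which were 2.65-fold and 2.39-fold higher in the prefrontal cortex. The silent modulatory subunits Kcnf1 and Kcnv1 were 2.94-fold and 2.89-fold higher there, each with non-overlapping libraries and an edgeR adjusted p of at most 2.80e-08.

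In the hippocampus the silent subunit Kcng2 was higher, at 2.87, 1.36, 0.80, 1.96 and 1.32 CPM in the prefrontal cortex and 6.86, 8.6, 9.18, 5.85 and 8.04 CPM in the hippocampus. The lowest hippocampal library, mouse 286, was at 5.85 CPM and the highest prefrontal one, mouse 272, at 2.87 CPM (log2 fold change 2.19, SE 0.28, edgeR adjusted p = 2.04e-05). The small-conductance calcium-activated channel Kcnn2, the A-type channels Kcnd2 and Kcna4 and the G-protein-gated channel Kcnj6 were 1.62-fold, 1.49-fold, 1.55-fold and 1.29-fold higher there.

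Neuropeptide genes were mostly higher in the prefrontal cortex, 10 of 14 peptides tested against 2 in the hippocampus, while receptors went both ways, 7 and 5 of 19. Peptides and receptors together passed in 72.7% of cases, beside 35.6% of all genes tested. Here too some, such as Nts and Tacr3, were tested only through their hippocampal counts, which favours a call. Cckbr (chr7:105425676-105436339), the brain receptor for cholecystokinin, was at 79.3, 79.5, 77.3, 85.7 and 68 CPM in the prefrontal cortex and 8.01, 3.77, 6.53, 5.63 and 4.02 CPM in the hippocampus. The gap was 14.6-fold in the prefrontal direction (log2 -3.86, SE 0.14, edgeR adjusted p = 3.98e-11). Its ligand gene Cck was at 149 ± 14.7 CPM in the prefrontal cortex and 74.6 ± 9.36 CPM in the hippocampus. Npy2r (chr3:82538383-82548989), a presynaptic receptor for neuropeptide Y, was at 4.53, 5.34, 6.4, 6.47 and 4.49 CPM in the prefrontal cortex and 83.8, 95.2, 87.8, 86.4 and 75 CPM in the hippocampus. This was 15.3-fold in the opposite direction (log2 3.94, SE 0.10, edgeR adjusted p = 1.76e-12), while the ligand gene Npy was at 115 ± 18.2 CPM in the prefrontal cortex and 46.5 ± 11.5 CPM in the hippocampus.

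Among other peptides, Adcyap1 (PACAP) was 5.49-fold and Vip 3.17-fold higher in the prefrontal cortex, and the kappa opioid receptor gene Oprk1 3.91-fold. Sst (somatostatin) differed by -0.38 on the log2 scale with overlapping libraries (edgeR adjusted p = 0.00177), a call lost with RIN as a covariate (edgeR adjusted p = 0.0595). In the hippocampus Nts (neurotensin) was at 5.98 ± 1.46 CPM against 0.263 ± 0.163 CPM. Tacr3 (chr3:134829007-134934581), the neurokinin B receptor, was at 0.663, 0.291, 0.90, 0.49 and 0.88 CPM in the prefrontal cortex and 9.56, 6.86, 8.77, 7.15 and 7.59 CPM in the hippocampus, low in every prefrontal library and apart from every hippocampal one. Npy5r was 1.65-fold higher in the hippocampus.

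Receptors for serotonin, dopamine, noradrenaline and acetylcholine did not move as one group. Of 29 tested, 9 were higher in the hippocampus and 13 in the prefrontal cortex, 75.9% in all, beside 35.6% of all genes tested. The low-count filter kept some, such as Chrm5, only through the region where they are high, which favours a call. For serotonin, Htr4, which raises cyclic AMP, was at 0.994, 1.75, 1.1, 1.08 and 2.11 CPM in the prefrontal cortex and 15.6, 18.8, 22.3, 15.8 and 22.5 CPM in the hippocampus. The 13-fold gap was free of overlap (log2 3.70, SE 0.19, edgeR adjusted p = 1.11e-09). Htr2c and Htr1a were 2.32-fold and 1.93-fold higher in the hippocampus, and Htr2a, the receptor through which classical psychedelics act, was 3.74-fold higher in the prefrontal cortex, at 42.6 ± 4.28 against 11.7 ± 1.57 CPM.

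For noradrenaline, 3 of 7 receptor genes were higher in the prefrontal cortex and 0 in the hippocampus, beside 17.6% and 18.1% of all genes tested. Adra1b (chr11:43774605-43901250) was at 26.2, 25.7, 18.4, 19.4 and 16.7 CPM in the prefrontal cortex and 2.6, 2.03, 1.63, 1.62 and 2.38 CPM in the hippocampus (log2 fold change -3.40, SE 0.17, edgeR adjusted p = 6.24e-10), and Adra1a was 2.47-fold higher in the prefrontal cortex. For dopamine, the 2 genes of D1-type receptors were opposite: Drd1 was at 19.2 ± 4.67 CPM in the prefrontal cortex and 6.51 ± 1.67 CPM in the hippocampus, and Drd5 at 2.3 ± 0.612 and 9.26 ± 2.18 CPM. Of the exon bases of Drd5, 48.6% are shared with the gene Gm26560. For acetylcholine, the muscarinic gene Chrm5 had 4 counts over the prefrontal libraries and 104 over the hippocampal ones, a ratio of 26.5 (exact 95% counting interval 10.05 to 99.1; edgeR adjusted p = 1.27e-05). The nicotinic gene Chrna7 was 2.38-fold higher in the hippocampus, and Chrna4 and Chrm2 were 2.63-fold and 1.81-fold higher in the prefrontal cortex.

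Axon guidance genes, the ligand and receptor families that steer growing axons and later shape synapses, differed in 39 of 57 cases (68.4%), 23 higher in the hippocampus and 16 in the prefrontal cortex. Over all genes tested the share was 35.6%. Sema3a (chr5:13124822-13603485), a secreted repellent also held in perineuronal nets, was at 72.8, 69.3, 76.6, 74.4 and 74.6 CPM in the prefrontal cortex and 8.63, 12, 11.3, 9.1 and 11.1 CPM in the hippocampus. Prefrontal values were tight and all above the hippocampal ones (log2 fold change -2.86, SE 0.10, edgeR adjusted p = 3.22e-11). Its receptor gene Nrp1 was higher where the ligand was lower, at 40.9 ± 4.3 CPM in the prefrontal cortex and 134 ± 12.2 CPM in the hippocampus. The other neuropilin gene, Nrp2, was at 51.3 ± 4.63 and 137 ± 16.6 CPM. Sema3e was 3.23-fold higher in the hippocampus and its receptor Plxnd1 3.01-fold higher in the prefrontal cortex.

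Among Eph receptors, Epha6 (chr16:59641433-60610911) was at 37.3, 36.1, 29.5, 27 and 29.6 CPM in the prefrontal cortex and 117, 122, 119.5, 98 and 116 CPM in the hippocampus, and Ephb6 was 3.59-fold higher in the prefrontal cortex. The ephrin gene Efna5, the semaphorin gene Sema4a and the plexin gene Plxna2 were 3.21-fold, 3.0-fold and 1.51-fold higher in the prefrontal cortex. Of 15 genes of the Slit and netrin systems 9 were higher in the hippocampus and 2 in the prefrontal cortex. Over all genes tested these shares were 18.1% and 17.6%, and the group is small. Among the 9 were Slit1 (2.92-fold) and the netrin-G gene Ntng1 (2.89-fold).

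Classical cadherins, calcium-dependent adhesion proteins, were higher in the prefrontal cortex for 7 of 15 genes and in the hippocampus for 3. This was 66.7% of the list, beside 35.6% of all genes tested. Cdh22 (chr2:165111501-165234924) was at 17.3, 15, 15.2, 15.1 and 13.8 CPM in the prefrontal cortex and 3.74, 5.32, 2.75, 3.14 and 5.67 CPM in the hippocampus, without overlap (log2 fold change -1.95, SE 0.18, edgeR adjusted p = 7.01e-07). Cdh7, Cdh18, Cdh4, Cdh13 and Cdh10 were 3.25-fold, 3.07-fold, 2.25-fold, 1.81-fold and 1.81-fold higher in the prefrontal cortex. Cdh9, which in the hippocampus joins mossy fibres to CA3 cells, was 2.5-fold higher in the hippocampus, and Cdh8 1.37-fold.

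Of 13 genes of the extracellular matrix and perineuronal nets, 5 were higher in the hippocampus (2 with RIN as a covariate) and 3 in the prefrontal cortex. In all 61.5% passed, beside 35.6% of all genes tested. Acan (chr7:79053226-79115099), aggrecan, the core of the nets, was at 1.21, 1.26, 1.1, 1.57 and 2.02 CPM in the prefrontal cortex and 2.81, 3.58, 4.08, 3.47 and 3.29 CPM in the hippocampus (log2 fold change 1.22, SE 0.27, edgeR adjusted p = 0.0023), a call that was lost with RIN as a covariate (edgeR adjusted p = 0.0544). Hapln2, a link protein of myelinated fibres, and Adamts4, a protease also of oligodendrocytes, were 2.08-fold and 1.66-fold higher in the hippocampus. Neurocan (Ncan), the link protein gene Hapln4 and reelin (Reln) were 1.52-fold, 1.28-fold and 1.25-fold higher in the prefrontal cortex, Reln not passing with limma on log2(RPKM + 1) (adjusted p = 0.0799).

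Corticosteroid hormones act through a high-affinity mineralocorticoid receptor and a lower-affinity glucocorticoid receptor, and the first is known to be enriched in the hippocampus. Of 12 genes tested, 6 were higher in the hippocampus and 2 in the prefrontal cortex, 66.7% in all, beside 35.6% of all genes tested. Nr3c2 (chr8:76898083-77245012), the mineralocorticoid receptor, was at 47.5, 49.6, 49.99, 47.1 and 41.5 CPM in the prefrontal cortex and 258, 326, 309, 263 and 296 CPM in the hippocampus. The receptor was 5.97-fold higher in the hippocampus in a comparison with little spread (log2 2.58, SE 0.079, edgeR adjusted p = 7.59e-12). Nr3c1, the glucocorticoid receptor, was at 232, 232, 239, 241 and 231 CPM in the prefrontal cortex and 221, 211, 213, 225 and 224 CPM in the hippocampus. Although these values do not overlap, the difference did not pass the test (log2 fold change -0.15, SE 0.067, edgeR adjusted p = 0.105).

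Hsd11b1, the enzyme that regenerates active glucocorticoid, was at 11.5 ± 1.68 CPM in the prefrontal cortex and 31.4 ± 2.77 CPM in the hippocampus. Among target genes, Fkbp5, a co-chaperone that dampens the receptor, was 2.38-fold higher in the hippocampus, the kinase Sgk1 1.38-fold (overlapping) and the mTOR inhibitor Ddit4 1.72-fold (edgeR adjusted p = 0.0519 with RIN as a covariate). Cdkn1a, the cell cycle inhibitor p21, and the clock gene Per1 were higher in the prefrontal cortex, at 55.7 ± 13.2 and 49.1 ± 14.8 CPM against 13.5 ± 6.4 and 30.8 ± 6.01 CPM.

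Immediate early genes are transcribed within minutes of neuronal activity, many through cyclic AMP response elements (CRE, TGACGTCA) and serum response elements in their promoters. Of 20 tested, 15 were higher in the prefrontal cortex and 4 in the hippocampus, with a median log2 fold change of -1.07. The share called was 95%, beside 35.6% of all genes tested. To show what promoters of members that differed in each direction look like, the 250 bases before the gene's RefSeq start are printed for those with the smallest p-values among genes with a single promoter entry that ends there (GRCm38.p6), 2 higher in the prefrontal cortex and 2 higher in the hippocampus. They read 5′ to 3′ on the gene's own strand, and capitals mark TGACG on either strand, which is the first part of the CRE and lies in it on both strands.
Dusp1 (chr17:26508473-26508722, minus strand): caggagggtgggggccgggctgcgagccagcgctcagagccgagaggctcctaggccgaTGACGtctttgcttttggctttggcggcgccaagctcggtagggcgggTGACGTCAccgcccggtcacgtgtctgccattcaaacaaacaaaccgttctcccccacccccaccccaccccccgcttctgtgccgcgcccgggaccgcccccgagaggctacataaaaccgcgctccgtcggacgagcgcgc
Fos (chr12:85473640-85473889, plus strand): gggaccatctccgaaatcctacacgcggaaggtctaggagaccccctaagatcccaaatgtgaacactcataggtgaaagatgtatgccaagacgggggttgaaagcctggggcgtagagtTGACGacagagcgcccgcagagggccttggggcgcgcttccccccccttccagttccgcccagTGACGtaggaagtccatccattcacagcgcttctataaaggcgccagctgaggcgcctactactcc
Jun (chr4:95052223-95052472, minus strand): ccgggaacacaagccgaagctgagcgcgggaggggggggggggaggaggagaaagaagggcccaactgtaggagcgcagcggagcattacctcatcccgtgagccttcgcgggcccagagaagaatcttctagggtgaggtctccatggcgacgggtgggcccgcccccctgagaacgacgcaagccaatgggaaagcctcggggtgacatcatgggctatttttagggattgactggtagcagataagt
Fosl2 (chr5:32136222-32136471, plus strand): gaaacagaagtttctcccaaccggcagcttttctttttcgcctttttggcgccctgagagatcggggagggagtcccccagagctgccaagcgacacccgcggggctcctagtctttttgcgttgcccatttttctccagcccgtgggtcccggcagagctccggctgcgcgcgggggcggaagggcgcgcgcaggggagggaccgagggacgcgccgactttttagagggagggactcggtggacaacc

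Among 4076 tested genes with such an entry, 28.1% held TGACG in this window, 3.24% held the full CRE and 1.10% held a CArG box, the core of the serum response element. Of the 8 immediate early genes with such an entry 5 held TGACG, 4 of the 5 that were higher in the prefrontal cortex and 0 of the 2 that were higher in the hippocampus. In the sequences above the full CRE occurs in Dusp1, Fos holds 2 copies of TGACG, and Jun and Fosl2 hold 0. A CArG box was in 0 of the 8 windows, which says only that these letters are not in these 250 bases.

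Fos (chr12:85473890-85477274), the AP-1 factor gene used as a marker of recent activity, was at 7.18, 12.1, 22.9, 32.9 and 24.1 CPM in the prefrontal cortex and 3.64, 3.58, 9.18, 8.34 and 7.77 CPM in the hippocampus. Each mouse was lower in the hippocampus, although the prefrontal values of mice 272 and 273 were low enough for the regions to overlap (log2 fold change -1.60, SE 0.15, edgeR adjusted p = 9.57e-07). Arc (chr15:74669081-74672570), a synaptic capsid-forming protein, was at 47.9, 64.2, 146, 199.6 and 144 CPM in the prefrontal cortex and 43.7, 44.2, 35.6, 48.5 and 51.7 CPM in the hippocampus, and was chosen after its values were seen. Mice 272 and 273 were again the lowest in the prefrontal cortex, and Arc differed by -1.31 (SE 0.21, edgeR adjusted p = 1.57e-04) with all mice and by -1.87 without these 2. Egr1 was at 232, 252, 310.2, 475 and 378 CPM in the prefrontal cortex and 85.3, 88.6, 109.6, 125 and 105 CPM in the hippocampus, and Egr3 (chr14:70077317-70082613) at 46.8, 50.4, 51.6, 62.4 and 56.7 and 24.2, 23.2, 16, 14.6 and 18.9 CPM. Both zinc finger factors were separated between the regions (log2 fold changes -1.69, SE 0.085, and -1.52, SE 0.13).

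Egr2 was 4.37-fold higher in the prefrontal cortex, Nptx2, a pentraxin that clusters AMPA receptors, 3.04-fold, the phosphatase Dusp1 2.67-fold, Fosb 2.2-fold and the neuronal factor Npas4 3.22-fold, Npas4 being named after its values were seen. Jun and Nr4a3 went the other way. Jun (chr4:95049036-95052222), the AP-1 partner of Fos, was at 32.6, 31.1, 38.7, 40.1 and 28.6 CPM in the prefrontal cortex and 83.5, 80.4, 99.5, 112 and 76.2 CPM in the hippocampus. Nr4a3 (chr4:48045078-48086447), an orphan nuclear receptor, was at 30.3, 41, 59.9, 94.9 and 73.3 CPM in the prefrontal cortex and 129, 122, 182, 174 and 162 CPM in the hippocampus. Both were separated, with log2 fold changes of 1.36 (SE 0.080, edgeR adjusted p = 5.17e-09) and 1.40 (SE 0.13, edgeR adjusted p = 5.77e-07). Fosl2 was 1.53-fold higher in the hippocampus, and the neurotrophin gene Bdnf 1.22-fold (edgeR adjusted p = 0.0377). The Bdnf call was lost without mouse 273, 283 or 286 (edgeR adjusted p between 0.0624 and 0.194) and with RIN as a covariate (edgeR adjusted p = 0.38) and without mice 272 and 273 (edgeR adjusted p = 0.0545).

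The summed level of the 20 genes in the prefrontal cortex was 1200 and 1209 CPM in mice 272 and 273 and between 1451 and 1881 CPM in the other 3, and in the hippocampus 844 and 832 CPM against 1063 to 1126 CPM. Within each mouse, the median log2 ratio of the genes was between -1.12 and -0.85. Without mice 272 and 273, 15 genes were higher in the prefrontal cortex and 3 in the hippocampus.

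Genes of the series' own topic, methylglyoxal clearance and vitamin B6, passed less often than genes at large in these 5 mice. Of 40 tested, 6 were higher in the hippocampus and 4 in the prefrontal cortex, which is 25% of the list beside 35.6% of all genes. These counts were 5 and 0 with RIN as a covariate, 3 and 2 without mice 272 and 273, and the first was 10 without mouse 286. Leaving out mouse 272, 283 or 286 alone left 2 higher in the prefrontal cortex. In the 15 mice of the other groups, 13 of 40 were higher in the hippocampus and 7 in the prefrontal cortex, where 53.9% of all genes passed. Glo1 (chr17:30592861-30612659), glyoxalase 1, was at 41.9, 42.3, 36, 35.5 and 43.4 CPM in the prefrontal cortex and 55.6, 56.7, 67.1, 57.8 and 56.9 CPM in the hippocampus. It was 1.43-fold higher in the hippocampus without overlap (log2 0.52, SE 0.10, edgeR adjusted p = 0.00104). The next enzyme of the pathway, Hagh, was at 40.8 ± 3.81 CPM in the prefrontal cortex and 39.9 ± 7.49 CPM in the hippocampus, which did not pass (log2 fold change -0.09, SE 0.11, edgeR adjusted p = 0.587). Aldh1a1 (chr19:20492583-20643463), an aldehyde dehydrogenase, was at 19.3, 15.4, 15.2, 16.5 and 21.1 CPM in the prefrontal cortex and 59.1, 50.6, 57.9, 51 and 52.7 CPM in the hippocampus, 3.01-fold apart (edgeR adjusted p = 2.39e-08).

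Of the vitamin B6 salvage genes, Pdxk (chr10:78436747-78464948), the kinase that makes pyridoxal phosphate, was at 115, 124, 109, 116 and 123 CPM in the prefrontal cortex and 100.1, 105, 95.7, 75.4 and 99.5 CPM in the hippocampus. Mouse 286 was lowest in the hippocampus, and the log2 fold change was -0.35 (SE 0.078, edgeR adjusted p = 0.00247), lost with RIN as a covariate (edgeR adjusted p = 0.0541). Pdxk shares 39.0% of its exon bases with the gene 4921516A02Rik. Among enzymes that need pyridoxal phosphate, Gldc, of glycine cleavage, was 1.48-fold higher in the hippocampus with overlapping libraries, and Gad1, which makes GABA, was at 327 ± 21 and 370.4 ± 34 CPM (edgeR adjusted p = 0.181). Shmt1 (chr11:60788897-60811265), a serine hydroxymethyltransferase, was at 0.773, 0.486, 1.0, 0.686 and 0.528 CPM in the prefrontal cortex and 3.01, 2.03, 1.33, 1.73 and 1.92 CPM in the hippocampus (edgeR adjusted p = 0.00384, and 0.11 without mice 272 and 273). Nuclear subunit genes of oxidative phosphorylation showed 1 gene higher in the hippocampus and 4 higher in the prefrontal cortex among 74 tested. This was 6.76%, beside 35.6% of all genes tested. The first count was 4 without mouse 286 and 0 without any other 1 mouse, without mice 272 and 273 or with RIN as a covariate, and the second 1 without mouse 283, 2 without mouse 273 and 1 with RIN as a covariate. Over the tested genes the log2 fold changes were between -0.49 and 0.21.

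Myelin genes were higher together in the hippocampus. Of 19 myelin and oligodendrocyte genes 16 were higher in the hippocampus and 0 in the prefrontal cortex, with a median log2 fold change of 1.08. That is 84.2% of the list, beside 35.6% of all genes tested. The summed level of the list was between 2535 and 3237 CPM in the prefrontal cortex and between 5664 and 7522 CPM in the hippocampus. Mobp (chr9:120149742-120181488), the myelin-associated oligodendrocyte basic protein, was at 562, 503, 671, 448 and 498 CPM in the prefrontal cortex and 1332, 1114, 1685, 1638 and 1347 CPM in the hippocampus. The regions were separated (log2 fold change 1.36, SE 0.10, edgeR adjusted p = 5.69e-08). Mbp, Cnp, Cldn11, Ermn and Ugt8a, genes of myelin structure and lipid synthesis, were 2.09-fold, 1.9-fold, 2.11-fold, 2.37-fold and 2.06-fold higher in the hippocampus.

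Of 17 astrocyte genes 8 were higher in the hippocampus and 0 in the prefrontal cortex, 47.1% called beside 35.6% of all genes tested. The summed level of the list overlapped, between 10809 and 12837 CPM in the prefrontal cortex and between 11301 and 12879 CPM in the hippocampus. Gfap (chr11:102887336-102897200), the intermediate filament of fibrous astrocytes, was at 48.9, 60.6, 44.8, 41.6 and 53.7 CPM in the prefrontal cortex and 301, 269.8, 241, 232 and 246 CPM in the hippocampus. Thbs4 (chr13:92751586-92794818), a matrix thrombospondin, was at 3.09, 3.21, 2.3, 3.04 and 1.85 CPM in the prefrontal cortex and 19.9, 16.8, 28.1, 15.7 and 22.9 CPM in the hippocampus. These 2 and the angiotensinogen gene Agt (5.65-fold) were well separated (log2 fold changes 2.33, SE 0.091, and 2.88, SE 0.20), while the water channel Aqp4, the bicarbonate transporter Slc4a4 and the connexin Gja1 were only 1.42-fold, 1.49-fold and 1.32-fold higher, Gja1 not passing with RIN as a covariate (edgeR adjusted p = 0.0755).

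Microglial and vessel markers differed in few genes, 7.14% and 11.8%, against 35.6% of all genes tested. Among 14 microglia genes 1 passed, Csf1r, the receptor for their survival factor, at 50.5 ± 5.09 CPM in the prefrontal cortex and 43.8 ± 9.15 CPM in the hippocampus (edgeR adjusted p = 0.0405), and it did not pass without mouse 272, 283 or 286 (edgeR adjusted p between 0.0805 and 0.105) or without mice 272 and 273 (edgeR adjusted p = 0.075). Among 17 genes of vessels, Flt1, a VEGF receptor, was 1.24-fold higher in the prefrontal cortex and Acta2, smooth muscle actin, 1.59-fold higher in the hippocampus. Both calls were lost when mouse 272, 273 or 317 was left out (edgeR adjusted p between 0.0546 and 0.112), and both mice 272 and 273 left out gave 0.154 for Flt1 and 0.347 for Acta2. The share among interneuron markers was 48%. Of 25 such genes 5 were higher in the hippocampus and 7 in the prefrontal cortex (3 and 3 with RIN as a covariate), and leaving out mouse 283, mouse 317 or both mice 272 and 273 gave 4 of the latter. Nos1, neuronal nitric oxide synthase, and Adarb2, a marker of interneurons of caudal origin, were each 1.78-fold higher in the hippocampus.

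Choroid plexus genes set hippocampal libraries apart from each other. Ttr, transthyretin, the thyroid hormone carrier that the choroid plexus secretes, was at 1.55, 2.04, 0.90, 0.294 and 0.264 CPM in the prefrontal cortex and 1021, 942, 21, 15.2 and 11.5 CPM in the hippocampus. The hippocampi of mice 272 and 273 were far above the other 3, and all 5 hippocampi were above all prefrontal libraries (log2 fold change 8.33, SE 0.38, edgeR adjusted p = 2.93e-10, and log2 5.02 without mice 272 and 273). Kl, klotho, was at 1.66, 3.01, 2.8, 1.86 and 3.17 CPM in the prefrontal cortex and 100.1, 96.3, 20.1, 22.2 and 23.3 CPM in the hippocampus, and Prlr, the prolactin receptor, at 0.994, 2.33, 0.40, 0.392 and 1.58 and 85.3, 72.2, 14.5, 12.2 and 13.8 CPM. The same 2 hippocampi were high, and both genes were still higher in the hippocampus without them (log2 fold changes 3.04 and 4.06, against 4.04 and 4.85 with all mice). The Wnt and BMP inhibitor Sostdc1 was at 11.6 ± 11.3 CPM in the hippocampus, an SD close to the mean (log2 fold change 5.14, and 3.25 without mice 272 and 273). Enpp2, autotaxin, made by the choroid plexus and also by oligodendrocytes, and named after its values were seen, was at 281, 275, 289, 242 and 249 CPM in the prefrontal cortex and 1243, 1381, 232, 229 and 226 CPM in the hippocampus. It did not pass (log2 fold change 0.73, SE 0.33, edgeR adjusted p = 0.101), and without mice 272 and 273 its sign turned (log2 -0.21, edgeR adjusted p = 0.226). It passed as higher in the hippocampus without the mouse block, with no low-count filter, or when mouse 286 or 317 was left out (edgeR adjusted p between 0.0118 and 0.0375).

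The low-count filter left 6 of the 15 choroid plexus genes in the test, of which 4 were called as higher in the hippocampus. Some, such as Ttr and Prlr, were kept only through their hippocampal counts. Neither this number nor those of the next sentence are therefore read here. With no filter all 15 were tested and passed as higher in the hippocampus, 11 passed with a minimum mean of 1 CPM, and 8 passed when mouse 286 was left out. In the prefrontal cortex Kcne2 had 0 counts in all libraries, and the summed level of the list was between 247 and 297 CPM. Most of that sum was Enpp2, at 242 to 289 CPM there, and at 226 to 232 CPM in the hippocampi of mice 283, 286 and 317. The sum therefore does not compare the 2 regions in the other choroid plexus genes. The part of choroid plexus tissue in the differences of other genes was not tested.

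**Figure D4:**
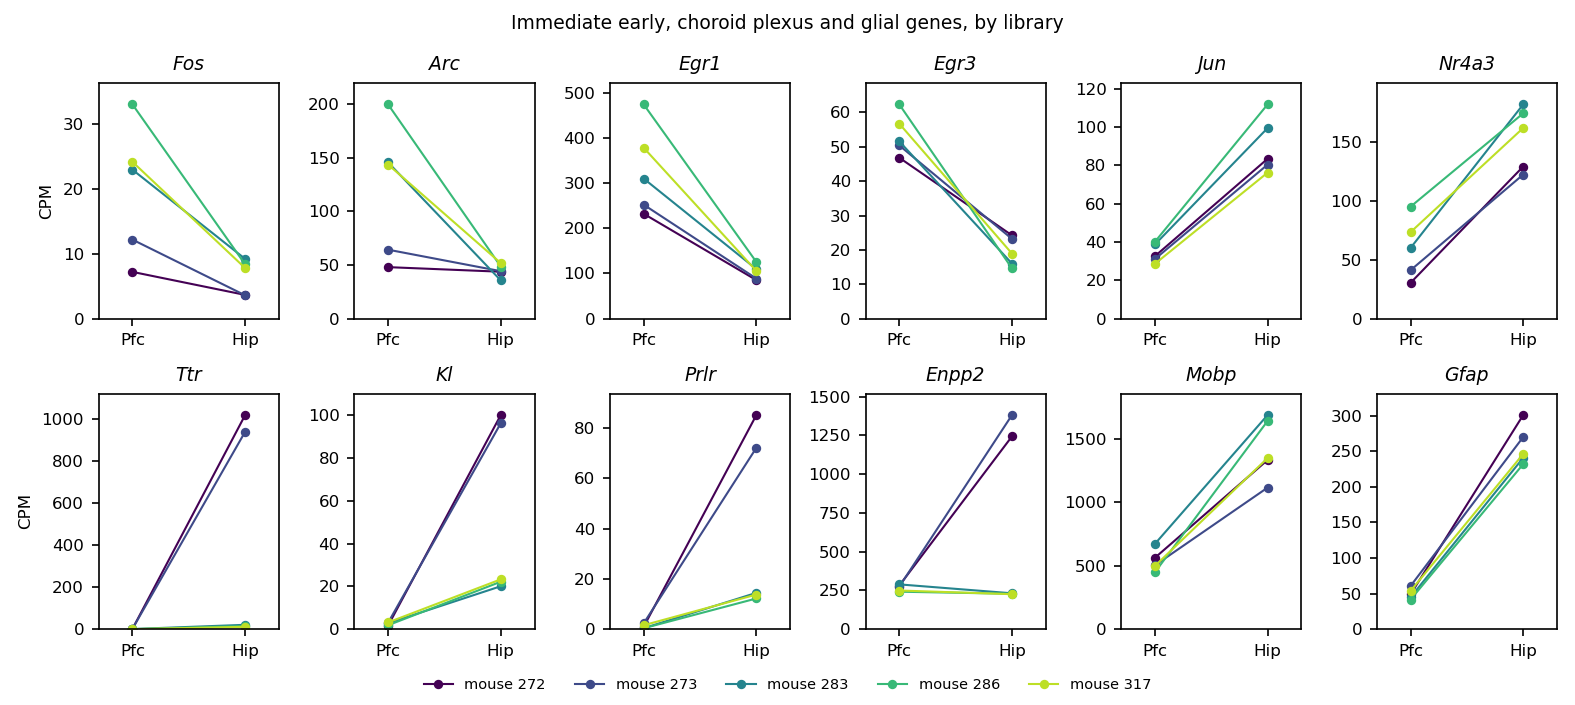
Levels in CPM (y axis, from 0) of 6 immediate early genes, 4 choroid plexus genes and 2 glial genes in the prefrontal cortex (Pfc) and hippocampus (Hip), each line joining the 2 libraries of 1 mouse. Mice 272 and 273 have the lowest prefrontal Fos and Arc and the highest hippocampal Ttr, Kl, Prlr and Enpp2, while Mobp and Gfap go up in all 5 mice.

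Ependymal genes of motile cilia were low in both regions, the 9 listed having a summed level of 4.5 to 5.2 CPM in the prefrontal cortex and 19.5 to 23.7 CPM in the hippocampus. The low-count filter left 6 of them, some only through their hippocampal counts, so the number called is not read here. Ccdc153 and Tmem212 were at 0 counts in the prefrontal cortex. Foxj1, the master factor of motile cilia, was at 1.15 ± 0.309 CPM in the prefrontal cortex and 3.75 ± 0.677 CPM in the hippocampus, Rarres2 (chemerin) at 1.05 ± 0.298 and 3.21 ± 1.11 CPM, and the cilia gene Rsph1 at 1.92 ± 0.506 and 3.85 ± 0.779 CPM (edgeR adjusted p = 0.0828 with RIN as a covariate). Rarres2 shares 33.6% of its exon bases with Lrrc61.

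Of 12 leptomeningeal markers 2 were higher in the hippocampus and 3 in the prefrontal cortex (6 without mice 272 and 273), 41.7% in all, near the 35.6% over all genes tested. Dcn (chr10:97479500-97518163), decorin, a small matrix proteoglycan, was at 11.8, 17.6, 13, 14.6 and 14.4 CPM in the prefrontal cortex and 117, 91.1, 92.2, 85.8 and 113 CPM in the hippocampus (log2 fold change 2.75, SE 0.12, edgeR adjusted p = 1.74e-10), and the related Lum 2.47-fold higher. The collagen gene Col1a2 was 1.63-fold and the prostaglandin synthase gene Ptgds 1.68-fold higher in the prefrontal cortex, Ptgds not passing in the fit that also held the striatal libraries of these mice (edgeR adjusted p = 0.0668).

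Markers of neighbouring regions were read as a check of the dissections. Striatal projection neuron genes summed to 355 to 413 CPM in the prefrontal cortex and 310.4 to 368 CPM in the hippocampus, beside 11253 to 12436 CPM in the striatum of the same mice. Of 12 tested, 7 were higher in the prefrontal cortex and 1, Foxo1, in the hippocampus, the latter count being 2 without mouse 272, without mouse 286, without mice 272 and 273 or without TMM factors. In all 66.7% passed, beside 35.6% of all genes tested. Scn4b, a sodium channel subunit, and the peptide genes Tac1 and Penk were 3.54-fold, 1.91-fold and 1.63-fold higher in the prefrontal cortex, and Ppp1r1b (DARPP-32) 1.68-fold. Their part in the regional differences was not tested. Of 10 thalamic genes 5 were higher in the hippocampus, among them the vesicular glutamate transporter Slc17a6 (1.59-fold) and the kinase Prkcd (2.67-fold), and 1, the receptor-modifying gene Ramp3, in the prefrontal cortex (7.46-fold). These are 60% of the 10 genes, beside 35.6% of all genes tested.

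The same contrast was then read in the 15 mice of the other 3 groups, which share no library with the first 5: wild-type mice on the diet lacking vitamin B6 and Glo1 knockout mice on either diet. Of 13612 genes tested there, 7336 (53.9%) passed, 3803 higher in the hippocampus (27.9%) and 3533 in the prefrontal cortex (26.0%). All 4657 genes called in the first 5 mice were tested, and 4634 of them (99.5%) had the same direction. Of these genes 4373 also passed in the same direction, which is 93.9% of the calls in the first 5 mice and 59.6% of the calls in the other 15, and 0 passed in the opposite direction. Among 1037 genes that differed at least 2-fold in the first 5 mice, 1022 (98.6%) passed in the same direction, and so did all 20 leading genes.

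Prox1, Nr3c2, Shisa6 and Npy2r had log2 fold changes of 3.39, 2.69, 3.92 and 4.09 in the other 15 mice, beside 3.39, 2.58, 3.77 and 3.94 in the first 5. Sst, Wfs1, Bdnf and Ptgds, which passed in the first 5 mice, had log2 fold changes of -0.18, -0.18, 0.11 and -0.28 and did not pass in the others (edgeR adjusted p between 0.0552 and 0.318). Nr3c1, which had not passed in the first 5 mice, stood at a log2 fold change of -0.27 in the other 15 (edgeR adjusted p = 5.42e-06). The field, layer and immediate early lists kept the sign of their medians, at 1.09 for the hippocampal field genes, -0.95 for the layer genes and -1.04 for the immediate early genes.

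Whether the region difference depended on genotype and diet was tested as an interaction over all 40 prefrontal and hippocampal libraries. Of 13726 genes, 0 (0.0%) passed in edgeR's quasi-likelihood test with the mouse as a block, and 707 (5.15%) had an unadjusted p under 0.05. Without the block 1 gene passed, and 1 passed when mouse 283 was left out. Genotype and batch cannot be told apart in this test, since all wild-type libraries are of batch 2 and all knockout libraries of batch 1.

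**Figure D5:**
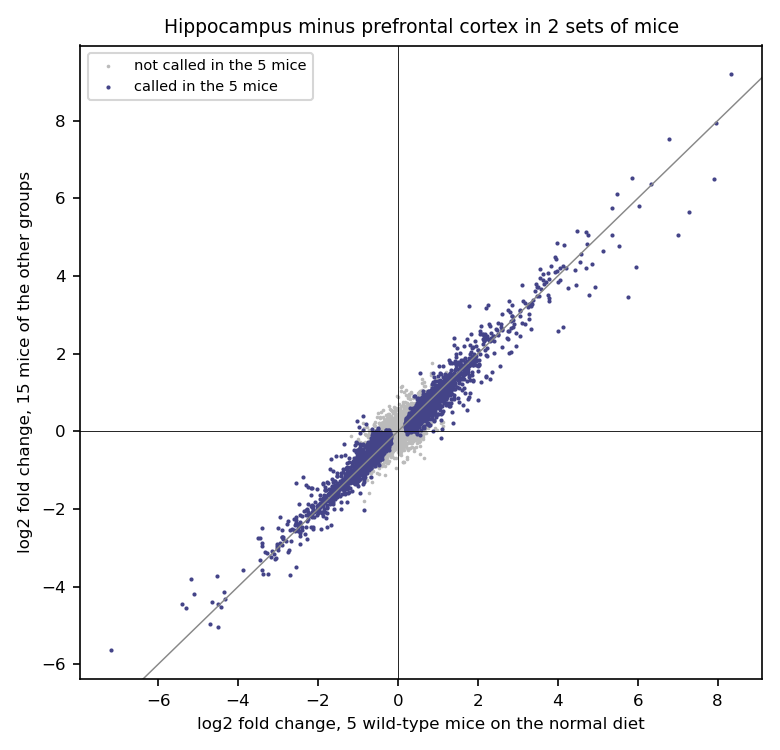
Each point is 1 gene at its log2 fold change, hippocampus minus prefrontal cortex, in the 5 wild-type mice on the normal diet (x axis) and in the 15 mice of the other groups (y axis), with the grey line marking equal values. Of the 4657 dark points, called in the first 5 mice, 4634 have the same sign on both axes.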

How the data were processed

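Poly(A) RNA (2 µg of total RNA, single 75-base reads) from the prefrontal cortex and hippocampus of 5 mice was compared, 10 libraries in all. Per the submitters' processing notes the tools named are STAR 2.7.1a and HTSeq 0.9.1 and the genome build is mm10; the settings and use of strand are not given in the sources used here. The authors deposited raw counts for 21999 genes, and RPKM, which the values show to be those counts per gene length and column total. Library totals of 9053720 to 11367155 counts put the 3-count floor at 0.264 to 0.331 CPM per library. Counting intervals cover counting error only.

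The raw counts as deposited were tested with edgeR 4.0.16 (R 4.3.3; filterByExpr, TMM, quasi-likelihood F-test, two-sided, Benjamini-Hochberg over all genes, threshold 0.05) with the mouse as a block. The labels give both regions the same mouse number. Deviations from the region means correlated at 0.106 on average within a mouse (0.0266 to 0.211). Between mice the mean was -0.0267 (-0.312 to 0.263). The second range encloses the first, so the pairing rests on the labels. CPM used column totals without TMM factors. DESeq2 1.42.0 and limma 3.58.1 (on log2 of the deposited RPKM plus 1 or 0.1) were alternatives, beside other filters, RIN, all 3 regions and each mouse left out. The fit was also run on simulated data with far fewer changed genes than were called here and no RIN difference, so that run does not check scaling or RIN. Promoters and coordinates are from RefSeq, GRCm38.p6.

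Genes were named by rule: in each direction the 10 largest fold changes among non-overlapping calls of at least 1 RPKM that went the same way in all mice, up to 6 calls with the smallest p per list and direction, the first 2 members of each role, and Glo1. The text describes 206 genes, all by this rule except Arc, Npas4 and Enpp2, which were chosen after their values were seen. Members and lists were chosen with earlier results of these data known, and the alternative without mice 272 and 273 was added after the data were seen. Some genes that the rule names are not reported here.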

Additional observations from a re-analysis of the deposited data

Results flagged for a closer look

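In each group of 5 libraries the highest and lowest value of a gene shown library by library was set against the other 4 with Dixon's criterion (critical value 0.71). Of 116 groups examined 5 held such a value, and chance flags about 1 in 20 groups. Zbtb20 was at 179.8 CPM in the prefrontal cortex of mouse 286, against 233 to 247 CPM in the other 4, and its log2 fold change without that mouse was 2.27. Mef2c was at 423 CPM in the hippocampus of mouse 286, against 331 to 343 CPM, with a log2 fold change of -2.60 without it. Epha6 was at 98 CPM in the same hippocampus, against 116 to 122 CPM, with 1.79 without it. Dkkl1 was at 1.22 CPM in the hippocampus of mouse 283, against 0 to 0.312 CPM, with -5.77 without it. Glo1 was at 67.1 CPM in that hippocampus, against 55.6 to 57.8 CPM, and its log2 fold change without mouse 283 was 0.42 (edgeR adjusted p = 0.0096).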

How the results depend on the processing

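The main comparison was repeated under 15 alternatives. In each, 0 of the 4657 genes changed sign among those it tested. With RIN as a covariate 2830 genes passed, 1320 higher in the hippocampus and 1510 in the prefrontal cortex, and the cause was not tested. On log2(RPKM + 1), a scale that understates the change of low genes, limma gave 235 and 250 genes at least 2-fold higher in the hippocampus and prefrontal cortex. Leaving out mouse 286 gave 4637 calls, and leaving out any other 1 mouse gave 3919 to 3995. Between pairs of hippocampal libraries, the chi-square of the counts per gene was 12.4 to 27.5 with mouse 286. In the remaining pairs it was 5.05 to 11.6. Without the replicate block 4458 genes passed here, 7514 in the other 15 mice and 1 in the interaction test, and the pairing by mouse changed no other count of calls over all genes by more than 1.5 times. The interaction test gave 0 to 1 calls with 1 mouse left out, and the other 15 mice 7034 to 7686. The log2 fold change of Hagh was between -0.16 and 1.6e-05 with 1 mouse left out, its sign turning without mouse 286, and that of Enpp2 was -0.21 without mice 272 and 273. Of 202 named genes that passed, 188 passed in the same direction in each alternative that tested them and 198 with any 1 mouse left out. Genes at a few counts per library rest on the depth, and a difference below the 3-count floor was not detectable.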

Other observations

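In the 15 hippocampal libraries of the other 3 groups Ttr ranged from 2.60 to 1460 CPM with a median of 34.0 CPM, and 6 of the 15 were above 100 CPM. In the 15 prefrontal libraries of those groups Ttr was between 0 and 1.68 CPM, Arc between 32.8 and 214 CPM (median 115) and Fos between 7.53 and 33.2 CPM (median 20.7).

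Olfactory bulb and Cajal-Retzius markers were read as further checks of the tissue. Of 4 olfactory bulb genes tested, 3 were higher in the hippocampus and 0 in the prefrontal cortex, with summed levels of 27.2 to 32.5 CPM in the prefrontal cortex and 79.9 to 114 CPM in the hippocampus. Lhx9 was kept only through its hippocampal counts, so the number called is not read here. Of 4 Cajal-Retzius genes 1 was higher in the hippocampus and 2 in the prefrontal cortex, too few to set beside the 35.6% over all genes tested.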
